A study of Mus musculus with 4 samples.

Results

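Retinoic acid is made inside cells from vitamin A and acts on gene transcription. Retinol is first oxidised to retinaldehyde by dehydrogenases of the alcohol and short-chain families, a reversible step, and retinaldehyde is then oxidised irreversibly to retinoic acid by the Aldh1a enzymes. Binding proteins carry the acid, Cyp26 enzymes clear it, and heterodimers of retinoic acid receptors (Rar) with retinoid X receptors (Rxr) bind it on DNA. In epidermis the pathway is known for its effects on keratinocyte growth and on late differentiation.

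The 10 genes described here are the retinol and retinaldehyde oxidoreductases Dhrs9, Dhrs3 and Rdh10, the retinaldehyde dehydrogenases Aldh1a1, Aldh1a2 and Aldh1a3, the clearing enzyme Cyp26b1, the binding protein Crabp2 and the receptors Rarg and Rxra. They are 10 of 30142 genes with a row of their own on the array, and each had 1 such row. They were selected on this pathway and on the measured KO and WT signals of these arrays, in particular the large difference in Dhrs9, so their differences are given as a description, with no test.

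Transcripts were measured on 4 single-colour Affymetrix MTA-1_0 arrays, 2 of Glut1-deficient cells (KO) and 2 of wild-type cells (WT). Both groups were primary keratinocytes, cultured from 4 mice of each genotype on a C57BL/6J background at an age of 1 week. The KO mice lacked the glucose transporter Glut1 in keratinocytes only. The sources used here name no driver of that deletion. Cells of both genotypes grew in keratinocyte medium with 0.05 mM CaCl2, hydrocortisone, EGF, pituitary extract and insulin. They were reseeded at 2000000 cells after 3 days, on collagen, and taken the next day. Each array held RNA of 2 plates combined at random within a genotype, so the spread between arrays is that between pools.

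Values are log2 signals, and differences are KO minus WT on that scale with the standard error (SE) of the limma fit over all rows. A row lay at background when its signal did not exceed the 95th percentile of 23 background control rows of its array, a floor of 4.87 and 4.63 on the KO arrays and 4.36 and 4.70 on the WT arrays. Slc2a1, the gene of Glut1, had signals of 12.09 and 12.01 on KO arrays and 13.26 and 13.40 on WT arrays, a decrease of 1.28 (SE 0.10, adjusted p = 0.00754) that did not pass without KO replicate 1 or when every row of the table was tested (adjusted p 0.00545 to 0.0648 over the alternatives). Which part of the gene was deleted is not stated, so signal left in its row is no measure of function. Krt5, Krt14 and 7 other keratinocyte markers were above background on all 4 arrays, and Krt15 on all but KO replicate 1. Of the 30604 rows tested, 2209 passed at an adjusted p under 0.05 (limma, Benjamini-Hochberg), which is 7.22%. The groups did not overlap in 49.7% of rows.

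The step between retinol and retinaldehyde had both the largest increase and the largest decrease among the 10 genes. Dhrs9, a short-chain dehydrogenase that oxidises retinol and some hydroxysteroids, had signals of 10.21 and 11.04 on KO arrays and 5.97 and 6.29 on WT arrays. Both KO arrays lay far above both WT arrays, and the KO arrays were further apart from each other than the WT arrays were. The difference was 4.49 (SE 0.29, n = 2 per group), or 22.5-fold higher in KO, the 8th largest increase of all rows tested. Leaving out each array in turn gave 4.07 to 4.91.

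Rdh10, the retinol dehydrogenase that supplies retinaldehyde in the mouse embryo, had the opposite pattern. Its signals were 7.17 and 7.23 on KO arrays and 9.53 and 9.11 on WT arrays. Both KO arrays lay below both WT arrays. The difference was -2.12 (SE 0.16), 4.34-fold lower in KO, and ranked 53rd among the decreases of all rows. Dhrs3, which reduces retinaldehyde back to retinol, had signals of 5.96 and 6.08 on KO arrays and 6.61 and 6.39 on WT arrays. The groups did not overlap, and the difference was -0.48 (SE 0.12).

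Of the retinaldehyde dehydrogenases, which make retinoic acid, only Aldh1a3 had signal above background. Its signals were 9.86 and 9.44 on KO arrays and 10.46 and 10.66 on WT arrays. Both KO arrays were lower, by 0.91 (SE 0.17) on average, and leaving out each array in turn gave -1.12 to -0.70. Aldh1a1 had 4.22 and 4.11 on KO arrays and 4.12 and 4.01 on WT arrays, and Aldh1a2 had 3.80 and 3.79 on KO arrays and 3.75 and 3.84 on WT arrays. All of these values were below the floor of their array, so neither gene has a measured difference.

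Clearance, binding and receptor transcripts differed less. Cyp26b1, which oxidises retinoic acid for removal, had 6.34 and 6.45 on KO arrays and 5.84 and 6.26 on WT arrays. The KO arrays were both higher, with a difference of 0.34 (SE 0.16), but the gap between the groups was smaller than the gap between the WT arrays. Crabp2, which passes retinoic acid to its receptors, had 6.71 and 7.16 on KO arrays and 7.28 and 7.09 on WT arrays, and the groups overlapped. Its difference was -0.25 (SE 0.18).

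Rarg, the main retinoic acid receptor of epidermis, had 7.76 and 7.43 on KO arrays and 7.27 and 7.36 on WT arrays. The KO arrays were higher, mainly on replicate 1, with a difference of 0.28 (SE 0.14). Rxra, its main partner in epidermis, had 8.38 and 8.29 on KO arrays and 8.37 and 8.46 on WT arrays. These groups overlapped, and the difference was -0.08 (SE 0.10).

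**Figure D1:**
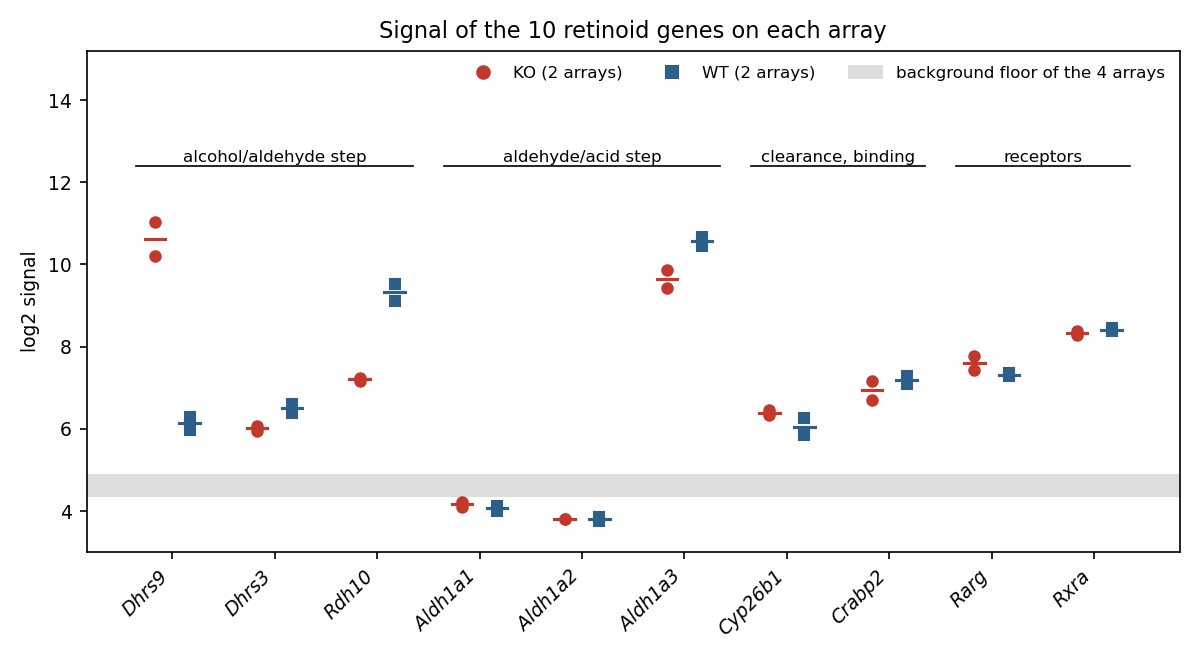
Signal of the 10 retinoid genes, with log2 signal on the vertical axis, KO arrays as red circles left of WT arrays as blue squares, lines at the group means and the range of the background floors in grey. Dhrs9 is higher in KO, Rdh10 and Aldh1a3 are lower, and Aldh1a1 and Aldh1a2 lie below the floors.

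Of the 10 genes, Dhrs9, Rdh10 and Aldh1a3 were among the rows that passed in the fit over the whole table, beside 7.22% of all rows, and in 6 of 10 the groups did not overlap, beside 49.7%. Since the genes were chosen with this contrast known, nothing is read from these counts. Their median difference was -0.04, and that of all rows was -0.01.

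Promoters of 7 of the 10 genes, as windows of 250 bases before to 50 bases after a transcription start, were available from RefSeq (GRCm38.p6). Rdh10, Aldh1a3 and Crabp2 had no window, so nothing is known here of their motifs. The window of Dhrs9 is shown because that gene differed most. That of Crabp1, described below, is shown because it rose most among the other pathway genes. Those of Rarb and Cyp26a1 are shown as textbook retinoic acid response elements. Other motifs were searched too, among them the TATA box TATAAA and direct repeats with spacers of 1 and 2 bases. The motif marked was picked from those its window held, so its presence tests nothing. Capitals mark a motif in each window, the same in Rarb and Cyp26a1. In Dhrs9 (chr2:69380212-69380511, plus strand) they mark TGANTCA, the AP-1 site, 18 to 12 bases before the start. In Crabp1 (chr9:54764498-54764797, plus strand) they mark TGATGNAA, an ATF4 type element, read on the minus strand 134 to 127 bases before the start. In Rarb (chr14:16575427-16575726, minus strand) and Cyp26a1 (chr19:37697558-37697857, plus strand) they mark a direct repeat with a spacer of 5 bases, a binding arrangement of Rar with Rxr. The repeat of Cyp26a1 is read on the strand opposite to that printed. Each line runs 5′ to 3′ on the gene's strand.
Dhrs9: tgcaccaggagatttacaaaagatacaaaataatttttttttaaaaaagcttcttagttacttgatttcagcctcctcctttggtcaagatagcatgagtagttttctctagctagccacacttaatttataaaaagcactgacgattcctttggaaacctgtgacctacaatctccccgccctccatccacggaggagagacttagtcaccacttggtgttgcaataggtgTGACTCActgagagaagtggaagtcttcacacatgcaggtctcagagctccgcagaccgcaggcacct
Crabp1: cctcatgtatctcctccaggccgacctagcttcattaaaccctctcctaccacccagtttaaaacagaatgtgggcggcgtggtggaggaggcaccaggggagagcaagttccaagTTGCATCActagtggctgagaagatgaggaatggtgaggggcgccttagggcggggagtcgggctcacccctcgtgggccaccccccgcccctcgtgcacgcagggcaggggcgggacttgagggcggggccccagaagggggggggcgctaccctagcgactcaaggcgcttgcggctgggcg
Rarb: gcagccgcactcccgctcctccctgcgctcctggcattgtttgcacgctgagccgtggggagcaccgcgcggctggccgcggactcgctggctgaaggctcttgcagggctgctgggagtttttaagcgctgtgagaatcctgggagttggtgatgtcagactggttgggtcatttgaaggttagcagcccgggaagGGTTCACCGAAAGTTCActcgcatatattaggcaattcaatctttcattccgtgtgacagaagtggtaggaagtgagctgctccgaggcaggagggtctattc
Cyp26a1: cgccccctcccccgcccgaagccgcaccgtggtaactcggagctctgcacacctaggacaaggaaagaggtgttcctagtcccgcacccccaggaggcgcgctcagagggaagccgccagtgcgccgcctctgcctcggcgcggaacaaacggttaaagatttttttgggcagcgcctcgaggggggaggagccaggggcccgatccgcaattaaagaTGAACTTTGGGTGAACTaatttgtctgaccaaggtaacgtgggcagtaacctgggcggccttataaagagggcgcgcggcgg

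The direct repeat was any ordered pair of half-sites, each either AGGTCA or its known variant AGTTCA or the further variant GGTTCA, with 5 bases of any kind between them, searched on both strands. It occurred in 20 of 32851 promoter windows (0.0609%), and in none of the 12 windows of the 7 genes or in that of Crabp1. A single half-site, which the repeat contains, occurred in 11503 of the 32851 windows and in at least 1 window each of Dhrs9, Rarg and Rxra. TGANTCA occurred in 7.81% of all windows, and among the 7 genes in Dhrs9 and in 1 window of Aldh1a1, which lay at background. It also occurred in that of Adh7, described below. TGATGNAA occurred in 3.97% of all windows and in none of those of the 7 genes. These matches describe the letters of the windows, and no binding was measured.

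Across 49 other measured genes of the pathway, 7 were called higher, 2 were called lower and 40 did not pass in KO cells, so 18.4% passed, beside 7.22% of all rows (4.11% higher and 3.11% lower). Their median difference was 0.03, against -0.01 over all rows. These genes come from 7 lists by role, and 21 of the 49 lay at background on all 4 arrays. Listed genes without a row annotated with their symbol alone were not analysed here.

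The largest rise was that of Crabp1, a binding protein for retinoic acid related to Crabp2. It had signals of 13.27 and 14.33 on KO arrays and 10.72 and 10.20 on WT arrays. Both KO arrays were well above both WT arrays, and they differed from each other by more than the WT arrays did. The gene rose by 3.34 (SE 0.38, limma adjusted p = 0.0152), which is 10.1-fold. Stra6, the retinol uptake receptor, passed the test in the other direction (adjusted p = 0.0355). Its signals were 4.13 and 4.13 on KO arrays, below the floor, and 4.73 and 4.63 on WT arrays, of which 1 exceeded its floor, so no fold is given. Of the 12 measured genes of uptake, carriage and carotenoid cleavage 16.7% passed, beside 7.22% of all rows. The other 10 did not pass. Among them Fabp5, a fatty acid binding protein that can also carry retinoic acid, had 6.66 and 7.05 on KO arrays and 6.08 and 6.25 on WT arrays (difference 0.69, SE 0.16, adjusted p = 0.0737).

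Among 14 other retinol and retinaldehyde oxidoreductases 4 were called higher, 1 was called lower and 9 did not pass, so 35.7% passed, beside 7.22% of all rows (4.11% higher and 3.11% lower). Of the 4 called higher, Sdr16c6 lay below the floor on all arrays and has no measurable difference. Adh7, the alcohol dehydrogenase of class IV, which oxidises retinol in epithelia, had 6.04 and 6.05 on KO arrays and 4.85 and 4.77 on WT arrays. It rose by 1.23 (SE 0.09, adjusted p = 0.00650). Sdr16c5, an epidermal retinol dehydrogenase, had 6.19 and 5.70 on KO arrays and 4.76 and 4.72 on WT arrays, a rise of 1.20 (SE 0.18, adjusted p = 0.0248). In both genes the WT arrays lay above the floor but close to it.

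Rdh12, a retinaldehyde reductase known from photoreceptors, had 5.75 and 6.02 on KO arrays and 5.11 and 5.27 on WT arrays (rise 0.70, SE 0.13, adjusted p = 0.0451). Sdr16c6, the gene next in kin to Sdr16c5, also passed (adjusted p = 0.0341), but its signals of 4.33 and 4.54 on KO arrays and 3.71 and 3.80 on WT arrays all lay below the floor. Dhrs4, a peroxisomal retinaldehyde reductase, fell. Its signals were 8.69 and 8.76 on KO arrays and 9.37 and 9.40 on WT arrays, a difference of -0.66 (SE 0.09, adjusted p = 0.0232). Rdh11, which reduces retinaldehyde, had 11.24 and 11.04 on KO arrays and 11.11 and 11.07 on WT arrays, and its groups overlapped.

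None of the 5 genes of retinol esters passed (limma; 1 had an unadjusted p under 0.05). Lipe, hormone-sensitive lipase, was highest among them in difference, at 0.56 (SE 0.13, adjusted p = 0.0698). Lrat, which esterifies retinol, lay at background on all arrays. None of the 3 further genes of synthesis and clearance, Aldh8a1, Cyp26a1 and Cyp26c1, passed, none had an unadjusted p under 0.05, and all 3 lay at background.

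None of the 4 other retinoid receptors passed, and 2 had an unadjusted p under 0.05. Rarb, the receptor gene that retinoic acid itself induces through the repeat shown above, had 4.65 and 4.70 on KO arrays and 5.15 and 5.05 on WT arrays (difference -0.43, SE 0.10, adjusted p = 0.0675). The groups did not overlap, and 1 KO array was below its floor. Rara had 7.84 and 7.80 on KO arrays and 7.51 and 7.36 on WT arrays (difference 0.39, SE 0.10, adjusted p = 0.0964).

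Of 5 receptor coregulators 1 rose and 4 did not pass, so 20% passed, beside 7.22% of all rows. Ncoa1, a coactivator of nuclear receptors, had 8.69 and 8.72 on KO arrays and 7.54 and 7.60 on WT arrays. It rose by 1.14 (SE 0.09, adjusted p = 0.00756). Of 6 partner receptors of Rxr 1 rose and 5 did not pass, so 16.7% passed, beside 7.22% of all rows. Thrb, a thyroid hormone receptor, had 5.38 and 5.45 on KO arrays and 4.53 and 4.75 on WT arrays. Its rise was 0.78 (SE 0.11, limma adjusted p = 0.0247), and its WT arrays lay above the floor but close to it.

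With 1 array left out, 2 to 4 of these 9 calls held. Crabp1 and Adh7 passed in each of those 4 fits. Ncoa1 was lost without KO replicate 1, Sdr16c5 passed only without KO replicate 2, and Rdh12, Dhrs4, Sdr16c6, Stra6 and Thrb passed in none. None of the 9 passed when every row of the table, unnamed and control rows included, was tested.

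**Figure D2:**
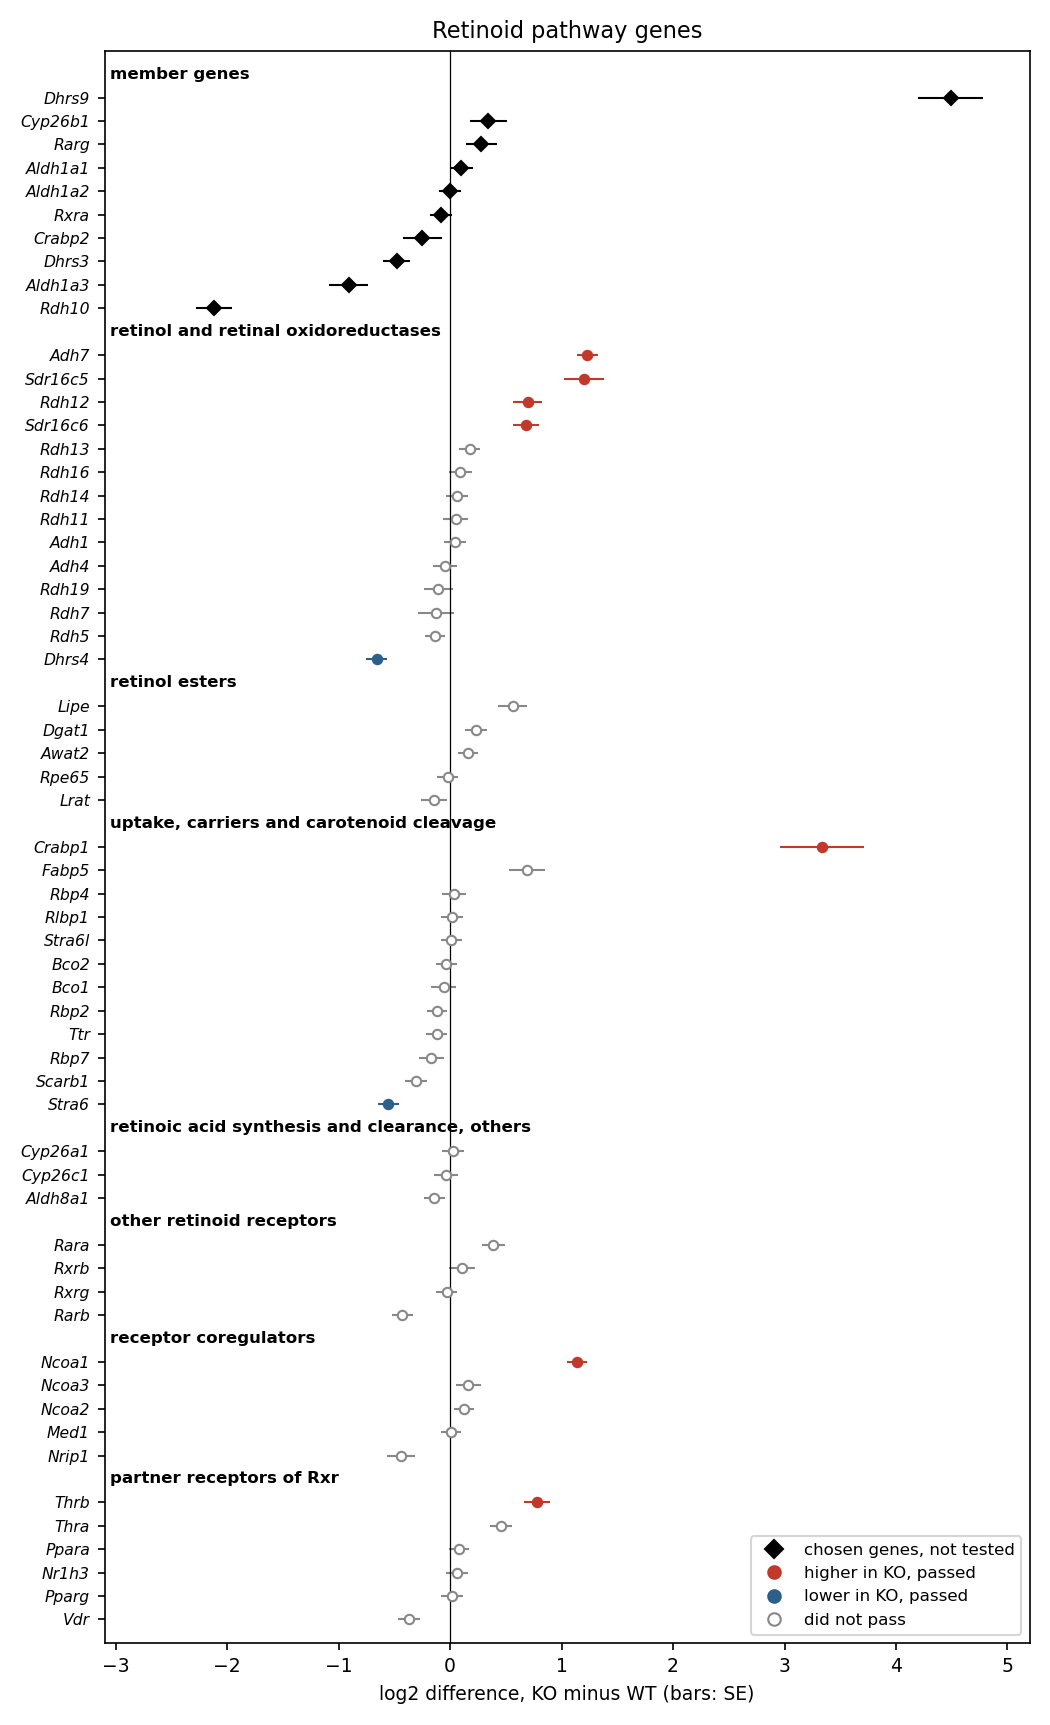
Log2 difference between KO and WT (horizontal axis, bars give the SE) for the 10 chosen genes as black diamonds and for 49 other retinoid pathway genes by role, with genes that passed in red or blue and the others open. Dhrs9 at 4.49 and Crabp1 at 3.34 stand furthest to the right, and Rdh10 at -2.12 furthest to the left.

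A further pair of lists held genes that retinoic acid is known to raise, in various cells, or to lower, in keratinocytes. None of the 10 chosen genes is in them, but Rarb, Cyp26a1, Stra6, Lrat and Nrip1 are also among the pathway genes above. Of 20 measured genes raised by retinoic acid, none rose, 2 fell and 18 did not pass (limma; 10 had an unadjusted p under 0.05), so 10% passed, beside 7.22% of all rows. Their median difference was -0.11, against -0.01 over all rows. In 12 of the 20 both KO arrays lay below both WT arrays, beside 25.8% of all rows, and in 5 they lay above, beside 23.8%. At background on all 4 arrays were 9 of the 20. They included Hoxb1, Rarres1, Krt13 and Stra8 of the 12, and Rarres2 and Aqp3 of the 5.

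The gene that fell most was Bhlhe40, a transcription repressor induced by retinoic acid in embryonal carcinoma cells and by many other stimuli. It had 12.49 and 12.50 on KO arrays and 13.58 and 13.64 on WT arrays, a decrease of 1.11 on the log2 scale (SE 0.09, adjusted p = 0.00761). Its 2 groups were each tight and well apart. The call was lost without KO replicate 1. The other gene that passed was Stra6, given above. Nrip1, a corepressor induced by retinoic acid, had 7.74 and 7.93 on KO arrays and 8.37 and 8.17 on WT arrays (difference -0.44, SE 0.13), and did not pass. It is among the 12 genes with both KO arrays lower. Of the 5 with both KO arrays higher, Meis1, Tgm2 and Meis2 were above background on all arrays. Their differences were 0.51 (SE 0.13), 0.42 (SE 0.14) and 0.35 (SE 0.10), and they did not pass either.

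Of 8 keratinocyte genes lowered by retinoic acid, none rose, 1 fell and 7 did not pass (1 had an unadjusted p under 0.05), so 12.5% passed, beside 7.22%. Their median difference was -0.13. In 6 of the 8 both KO arrays lay below both WT arrays, beside 25.8% of all rows. In none were both KO arrays above both WT arrays, beside 23.8% of all rows. Tgm1, the transglutaminase that links the cornified envelope, had 6.46 and 6.31 on KO arrays and 7.64 and 8.16 on WT arrays. It fell by 1.52 on the log2 scale (SE 0.19, adjusted p = 0.0186), and this call was lost without KO replicate 1 and without KO replicate 2. Krt1, Krt10, Krt2, Lor and Flg, genes of late differentiation, had differences between -0.19 and -0.04, Lor and Krt2 lay at background, and Krt1 exceeded the floor on 1 WT array only. Casp14, a protease of late differentiation, had 6.67 and 6.63 on KO arrays and 6.84 and 7.31 on WT arrays (difference -0.43, SE 0.17, adjusted p = 0.240). Its groups did not overlap, and it did not pass. Tgm3, the last of the list, lay at background.

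**Figure D3:**
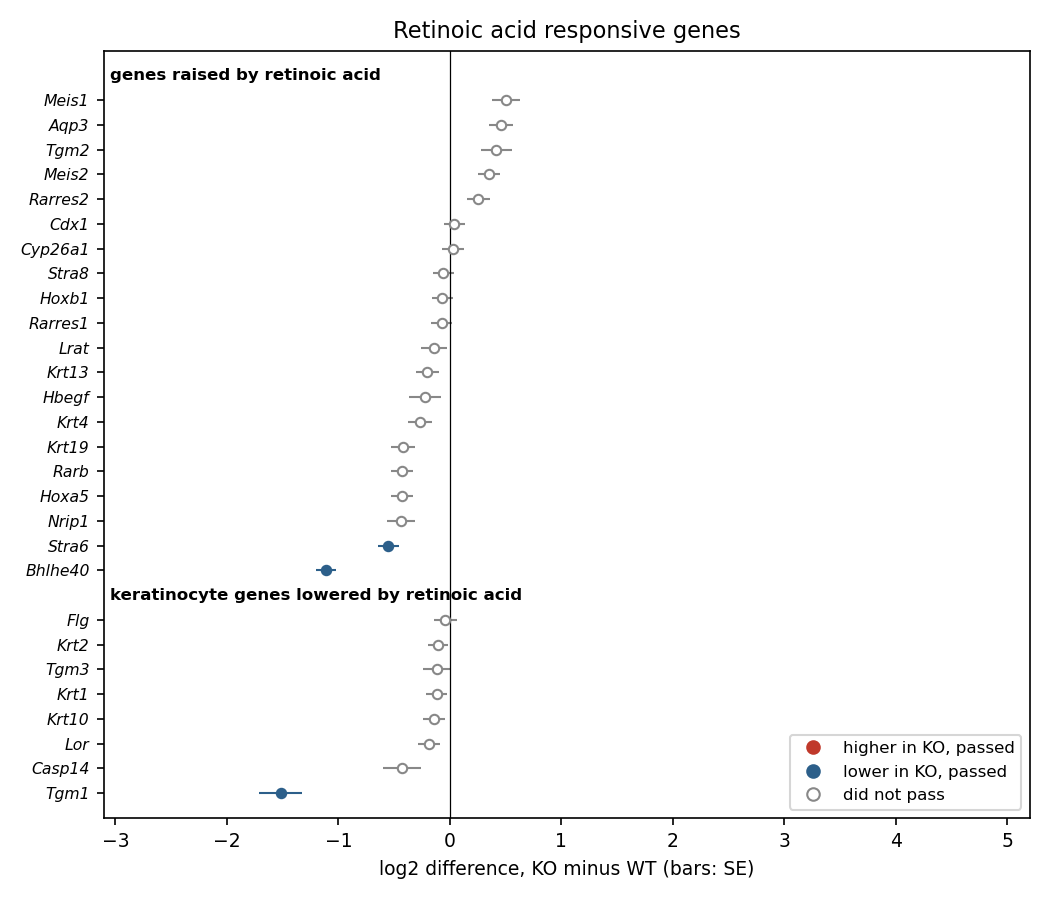
Log2 difference between KO and WT (horizontal axis, bars give the SE) for 20 genes raised and 8 keratinocyte genes lowered by retinoic acid in earlier knowledge. Bhlhe40, Stra6 and Tgm1, in blue, are the genes that passed, all lower in KO, and the open genes did not pass.

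The relatives of the 10 genes were compared next. Of 9 other genes named Dhrs 1 rose, 2 fell and 6 did not pass, so 33.3% passed, beside 7.22% of all rows. At background on all 4 arrays were 2 of the 9, beside 13634 of all 30604 rows. Dhrs7 had 8.89 and 8.99 on KO arrays and 8.11 and 8.21 on WT arrays, a rise of 0.78 (SE 0.10, adjusted p = 0.0193). Dhrs1 had 9.53 and 10.02 on KO arrays and 10.66 and 10.76 on WT arrays, a difference of -0.94 (SE 0.18, adjusted p = 0.0473). The third was Dhrs4, given above. All of them are short-chain dehydrogenases like Dhrs9.

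Of 17 other aldehyde dehydrogenases 6 rose, 1 fell and 10 did not pass, so 41.2% passed, beside 7.22% of all rows. Only 3 of the 17 lay at background on all 4 arrays, beside 13634 of all 30604 rows, so the shares compare genes of unlike signal. Aldh1l2, a mitochondrial folate enzyme, had 10.81 and 10.48 on KO arrays and 6.84 and 6.79 on WT arrays (rise 3.83, SE 0.14, adjusted p = 0.00208). It is the mitochondrial counterpart of Aldh1l1 in the cytosol. That gene fell by 0.69 (SE 0.12, adjusted p = 0.0373), with 6.93 and 6.72 on KO arrays and 7.59 and 7.44 on WT arrays.

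Aldh18a1, which makes the precursor of proline, rose by 1.10, and Aldh3b2 by 0.97. Aldh2, which oxidises acetaldehyde in mitochondria, and Aldh6a1, of valine breakdown, rose by 0.91 each, and Aldh9a1 by 0.79 (adjusted p of these 5 from 0.0190 to 0.0388). In each of these 5 genes both KO arrays were above both WT arrays, beside 23.8% of all rows. They are named because they passed as higher, so nothing is read from this. Aldh1a7, which is nearly identical to Aldh1a1 so that probes may not tell them apart, lay at background like Aldh1a1. Of the 10 calls among all relatives, that of Aldh1l2 held whichever array was left out. Without KO replicate 2 there were 6, and without any other array 1.

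**Figure D4:**
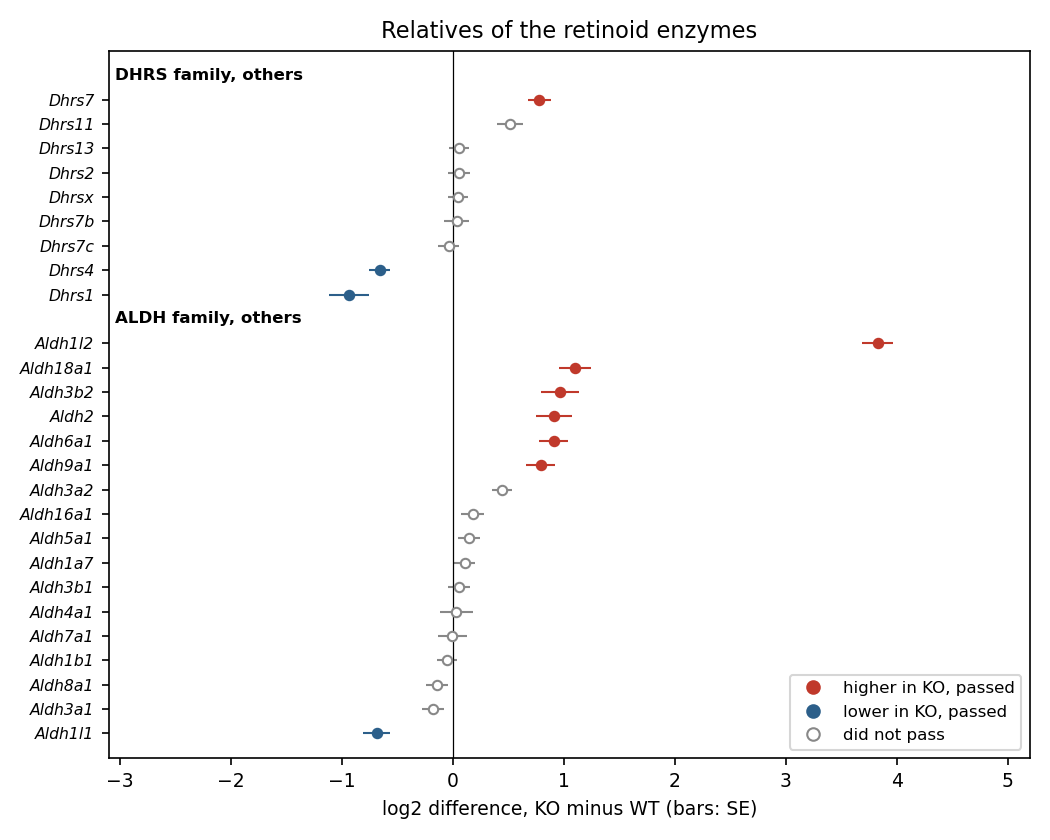
Log2 difference between KO and WT (horizontal axis, bars give the SE) for 9 other Dhrs genes and 17 other aldehyde dehydrogenase genes, with those that passed in red (higher in KO) or blue (lower in KO). Aldh1l2 at 3.83 is far to the right of the other relatives, which lie between -0.94 and 1.10.

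Genes beside Dhrs9 on chromosome 2 were examined next. The 3 genes with a row on each side, in the RefSeq order, are Spc25, G6pc2 and Abcb11 before it and Lrp2, Bbs5 and Klhl41 after it. None of the 6 passed (limma), and 1 had an unadjusted p under 0.05, Abcb11, whose signals were below the floor on all 4 arrays. Spc25, a kinetochore gene, had 7.30 and 7.58 on KO arrays and 7.72 and 7.78 on WT arrays. Bbs5, a cilium gene, had 6.93 and 6.75 on KO arrays and 6.61 and 6.77 on WT arrays. These were the only neighbours above background, with differences of -0.31 (SE 0.13) and 0.15 (SE 0.12).

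**Figure D5:**
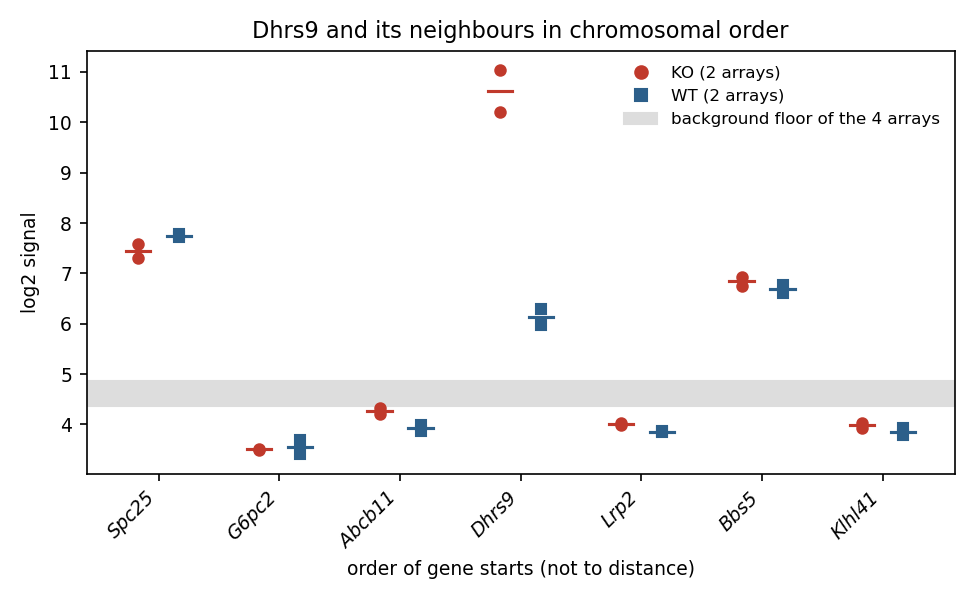
Log2 signal of Dhrs9 and of the 3 genes with a row on each side in chromosomal order, with KO arrays as red circles, WT arrays as blue squares, lines at the group means and the range of the background floors in grey. Dhrs9 alone has KO arrays far above WT arrays, and 4 of the 6 neighbours lie below the floors.

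The genes whose pattern over the 4 arrays was most like that of Dhrs9, by the Euclidean distance of log2 signals centred on each gene's mean, were Mmp3 (distance 0.72), Adm (0.74), Abca12 (0.78), Slc43a3 (0.87) and Ddit3 (0.98). Their differences ran from 3.81 to 4.98. With 4 arrays this measure picks genes of like size and direction.

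Markers of other cells were measured beside these results, as sums of linear signal over each list. In RNA of a whole culture, fewer cells of a type and less RNA per cell cannot be told apart. Melanocyte markers summed to 5361 and 2282 on KO arrays and 1527 and 1086 on WT arrays, with 8 of 8 above background on at least 1 array and 1, Pmel, passing. The brightest of them, Tyrp1 and Dct, had differences of 1.49 (SE 0.46) and 1.84 (SE 0.41), with both KO arrays above both WT arrays. They did not pass (adjusted p = 0.136 and 0.0670), but both passed with the replicate number as a block (0.0150 and 0.00729) and without KO replicate 2, over ranges of 0.0150 to 0.348 for Tyrp1 and 0.00729 to 0.213 for Dct. In 7 of the 8 melanocyte markers both KO arrays lay above both WT arrays, beside 23.8% of all rows. Fibroblast markers summed to 201 and 233 on KO arrays and 149 and 149 on WT arrays. Of 7 measured, 5 exceeded the floor on at least 1 array, Dcn rose at least 2.14-fold from background (adjusted p = 0.0250), and Lum and Col3a1 lay at background. In all 7 both KO arrays lay above both WT arrays, beside 23.8% of all rows, and their median difference was 0.37. Only Dcn passed.

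Endothelial markers summed to 1196 and 793 on KO arrays and 133 and 152 on WT arrays through Kdr. That gene rose by 3.60 (SE 0.23, limma adjusted p = 0.00508). Cdh5, Tek and Emcn of the 5 lay at background. Pecam1 went the other way and did not pass. Its signals were 4.37 and 4.26 on KO arrays, below the floor, and 4.60 and 4.66 on WT arrays, of which 1 exceeded its floor. Immune markers summed to 691 and 1241 on KO arrays and 279 and 295 on WT arrays through Cd68, which rose by 1.95 (SE 0.30, adjusted p = 0.0267), with the other 5 of 6, Ptprc among them, at background. Sebaceous gland markers summed to 16323 and 14814 on KO arrays and 20659 and 22144 on WT arrays, mostly Scd1, with none of 7 passing (limma; 1 with an unadjusted p under 0.05) and Mc5r, Awat1, Awat2 and Elovl3 at background. Keratinocyte markers summed to 813538 and 701934 on KO arrays and 852094 and 918287 on WT arrays. Only 1 of the 10 passed, Dsg3, which rose by 0.92 (SE 0.11, limma adjusted p = 0.0157). In 7 of the 10 both KO arrays lay below both WT arrays, beside 25.8% of all rows. In 3 they lay above, beside 23.8%. KO replicate 1 was the higher KO array for the melanocyte and endothelial sums. KO replicate 2 was the higher for Dhrs9, Crabp1 and the fibroblast and immune sums. Of 2 KO arrays 1 is always the higher, so nothing is read from this order. The part of other cell types in the retinoid gene differences was not tested.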

How the data were processed

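The authors deposited 1 log2 signal per transcript cluster and array. The submitters' processing notes name Affymetrix Expression Console and RMA, and the labels call the values gene-level SST-RMA. No versions, annotation release or filters are stated. RMA includes a step that makes array distributions alike, which can remove changes common to most genes. The deposited arrays were close but not identical, with medians of 4.19 to 4.24. Folds may depend on the signal transformation. The table held 72688 rows, of which 6732 were controls; 30604 rows had 1 gene symbol, 2146 had several and 33206 had none. RefSeq identifiers updated 827 symbols.

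The rows with 1 symbol were fitted with limma 3.58.1 in R 4.3.3 (lmFit, eBayes, no replicate block, two-sided, Benjamini-Hochberg over all rows). The row with the highest mean stood for a gene. The p-values reflect only the variation among these pooled samples, some of it possibly technical, and 4 arrays limit the precision. The fit was tested on simulated data. The genes and lists were chosen with earlier results of these data known. By rule, named genes were Slc2a1, the 10 genes, every gene of a list that passed (otherwise up to 2 with the smallest p), the neighbours and 5 most alike genes of Dhrs9, and the 3 brightest markers of each list; not all are printed. Other genes given with values or as at background were chosen after their values were seen. Alternatives covered normalization, centring, rows tested, variance moderation, a replicate block and each array left out.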

Additional observations from a re-analysis of the deposited data

How the results depend on the processing

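The count of 2209 rows that passed was 74 when every row of the table, controls included, was tested, and 314 to 1214 with 1 array left out. The 10 chosen genes were selected on this contrast, so their calls are no test of them. The 3 among the rows that passed were 0 when every row was tested. With all 4 arrays kept, Aldh1a3 was also not among those rows after quantile normalization or with eBayes trend and robust settings. Leaving out 1 array leaves 1 in its group, so only differences, and no calls, are given there for the chosen genes. With 1 array left out, the difference of Dhrs9 ran from 4.07 to 4.91 and that of Rdh10 from -2.33 to -1.90. That of Aldh1a3 ran from -1.12 to -0.70. Among the other pathway genes 9 passed, 0 when every row was tested and 2 to 4 with 1 array left out. For the retinoic acid responsive genes these counts were 3, 0 and 0 to 2, and for the relatives 10, 1 and 1 to 6. Among the neighbours of Dhrs9 none passed under any alternative run. Quantile normalization, median centring, rows at or above the median mean (3043 of 15302 rows, or 19.9%, passed) and trend and robust settings kept each list's count within 1.5 times, but Aldh1l1 was lost after quantile normalization, and Rdh12 and Dhrs1 after median centring and with trend and robust settings. With the replicate number as a block 1849 rows passed, and of the pathway genes and relatives that had passed only Stra6 was lost; the arrays share only a number (correlation -0.23 between the genotypes' replicate differences). Tyrp1 and Dct, which had not passed, did so under it. No named gene that passed changed sign. Of those that did not pass, the sign turned for some arrays left out, with ranges of -0.10 to 0.035 for Cyp26c1 (0.029 without KO replicate 1), -0.19 to 0.097 for G6pc2, -0.037 to 0.21 for Cdh5, -0.026 to 0.022 for Ptprc (0.012 without KO replicate 2), -0.13 to 0.033 for Scd3 and -0.12 to 0.14 for Krt79 (-0.072 without WT replicate 1). Aldh1a2, at 0.00 and below the floor, ran from -0.048 to 0.049. Ptprc also turned after quantile normalization (0.016). The causes were not tested. Signals at or below the floor have no measurable difference.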
